A study of Mus musculus with 2 samples.

Results

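The cytosolic ribosomal protein genes encode the proteins of the ribosome that translates nuclear messages in the cytoplasm. They were taken by name from the GENCODE M21 mouse annotation: protein-coding genes whose whole symbol is Rpl or Rps, a number and at most a short suffix (a letter, an l for “like” or, for Rpl only, a digit after the letter), the stalk genes Rplp0, Rplp1 and Rplp2, and Rpsa. The rule found 83 genes of the 43346 Ensembl genes in the tables, 52 of the large subunit and 31 of the small subunit, and it used no measured value. Of these, 76 are the core genes of the ribosome (46 large, 30 small) and 7 are paralogs, second copies that encode a like protein: Rpl3l, Rpl7l1, Rpl10l, Rpl22l1, Rpl36al, Rpl39l and Rps27l. The rule leaves out other genes of ribosomal proteins, among them Rps3a1, whose suffix is outside the pattern, and Fau and Rack1, whose names start otherwise.

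Total RNA was sequenced from midbrain of B6NCrl mouse embryos at embryonic day 16.5, in 2 libraries of 1 group. Each library was a pool of embryos of both sexes, untreated and with no altered allele named in the labels, and 10 ng of RNA longer than 200 nt entered each with spike-in sequences. Replicate 2 came from 37 embryos; the labels give no such number for replicate 1. The labels give both pools the same donor identifier, so the spread between them may be partly technical. Nothing can be tested on 2 libraries of 1 group, so each difference between them is a description.

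A ribosome holds a single copy of nearly all of its proteins, so cells make them in matched amounts. Messages of these genes usually begin with a C followed by a run of pyrimidines, the 5′ terminal oligopyrimidine tract, through which mTOR and its partner Larp1 set how much of the message is translated. The genes are short, intron-containing and active in every cell, and their messages have left many processed pseudogenes, intronless copies pasted elsewhere in the genome. Growing neurons translate them both in the cell body and in axons.

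The first sequences to look at are those around the start of transcription, where the pyrimidine tract begins. Each line gives 30 bases, 15 before the start annotated by RefSeq and 15 from it on (GRCm38.p6, 5′ to 3′), so that the start is base 16 of the line. Capitals mark the longest run of a C followed by at least 4 pyrimidines that begins within 10 bases of that start.
Rps15a, chr7:118116133-118116162, minus strand: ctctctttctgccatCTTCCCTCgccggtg
Rpl38, chr11:114668565-114668594, plus strand: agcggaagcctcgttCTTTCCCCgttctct
Rps6, chr4:86857353-86857382, minus strand: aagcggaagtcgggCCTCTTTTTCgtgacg
Rps27, chr3:90213634-90213663, minus strand: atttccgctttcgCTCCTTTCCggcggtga
Rpl15, chr14:18270972-18271001, minus strand: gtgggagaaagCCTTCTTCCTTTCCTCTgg
Rpl35, chr2:39005117-39005146, minus strand: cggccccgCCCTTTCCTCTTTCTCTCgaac
Rpl22l1, chr3:28805493-28805522, plus strand: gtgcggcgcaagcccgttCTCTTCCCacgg
Rpl41, chr10:128549154-128549183, minus strand: cacacgggccggctcggaagtgacgacacc
Rpl36al, chr12:69184053-69184082, minus strand: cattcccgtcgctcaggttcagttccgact
The first 6 are core genes with a tract that covers the annotated start. Rpl22l1, a paralog, has one 3 bases into the message, and the annotated windows of Rpl41 and Rpl36al hold none.

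RefSeq start windows matched 63 of the 83 genes, 56 of them core genes. The 63 genes have 75 annotated starts, and a feature counted when it was found at any start of a gene. The starts are those of the annotation, and where transcription began in these libraries was not tested. Of 11459 plus-strand promoters with a single start, 74.7% had it at the RefSeq start of the gene. A C followed by at least 4 pyrimidines stood exactly at an annotated start in 13 of the 56 core genes (23.2%), against 3.01% of the 27025 genes in the table of starts, 3.01% of 10432 detected protein-coding genes and 0 of 68 genes of the mitochondrial ribosome, which is built from other proteins. The 13 were Rpl14, Rpl15, Rpl28, Rpl35, Rpl35a, Rpl38, Rplp2, Rps6, Rps10, Rps15a, Rps18, Rps21 and Rps27. When the tract was allowed to begin within 10 bases of the start, 34 core genes had one (60.7%), against 34.4% of all genes, 36.7% of detected protein-coding genes and 31 mitochondrial ribosomal genes (45.6%). With at least 6 pyrimidines in that range the count was 27 core genes (48.2%), against 14.1% of all genes, 15.6% of detected protein-coding genes and 7 mitochondrial ribosomal genes (10.3%). The level of the message is given in TPM (transcripts as a share of all transcripts of a library, on a common scale), which is per length. The 34 core genes with a tract within 10 bases had a median of 304 TPM and ranged from 62.9 to 858, and the 22 without one had a median of 381 and ranged from 57.2 to 1658, so the ranges overlapped.

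Other words of core promoters were searched on both strands. The word TATAAA, looked for from 40 to 15 bases before the start, was in the windows of 0 of the 56 core genes, in 3.01% of all genes and in 1.601% of detected protein-coding genes. Among the paralogs it was found at Rpl22l1 alone of 7. The word CCGGAAG, bound by ETS-type factors, occurred anywhere in the 300 bases of 23 core genes (41.1%), of 25 mitochondrial ribosomal genes (36.8%), of 9.93% of all genes and of 19.2% of detected protein-coding genes. The word CCATNTT, bound by YY1, occurred in 18 core genes (32.1%), in 23 mitochondrial ribosomal genes (33.8%), in 18.2% of all genes and in 17.1% of detected protein-coding genes. A match is a run of letters, not a measured binding site.

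**Figure D1:**
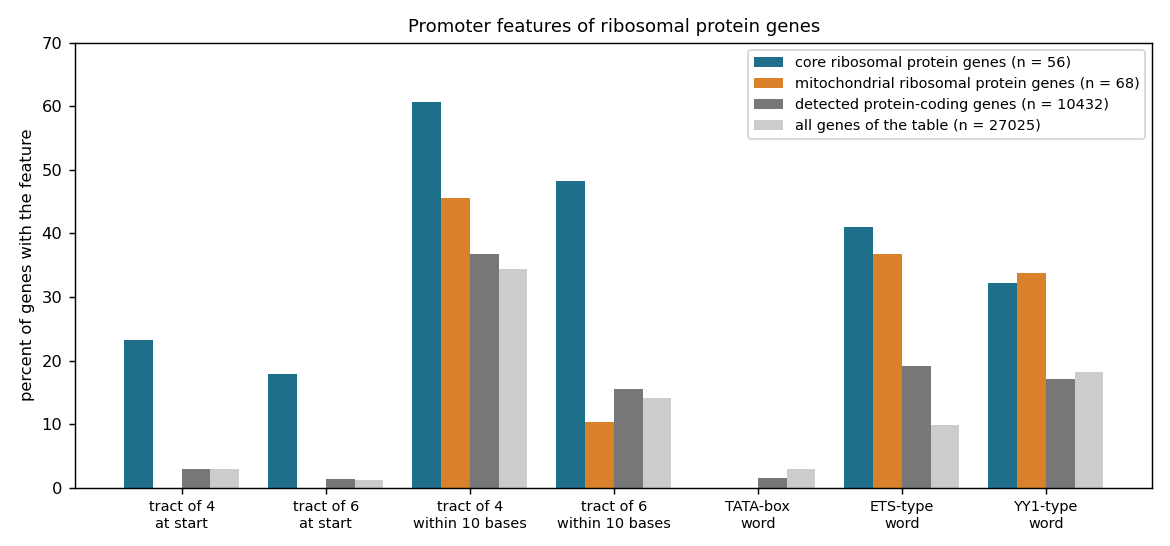
Percent of genes whose RefSeq start window holds each feature, for core ribosomal protein genes, mitochondrial ribosomal protein genes, detected protein-coding genes and all genes of the table; bars start at 0 and the number of genes is in the legend. The core genes stand at 23.2% for a pyrimidine tract at the start, where the mitochondrial ribosomal genes stand at 0.

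Of the 83 genes, 80 were detected, meaning at least 1 TPM in both libraries, and these were all 76 core genes and 4 paralogs. The detected genes had a median of 377 TPM in replicate 1 and 363 TPM in replicate 2 (370.0 ± 9.47, SD, n = 2), with core quartiles of 254 and 510. The median of the 13333 detected protein-coding genes was 20.3 ± 0.339 TPM, and 319 of these genes (2.39%) reached the middle of the ribosomal protein genes. All 77 mitochondrial ribosomal genes were detected as well, at a median of 73.1 ± 0.990 TPM, led by Mrps21 at 220 ± 8.95, Mrpl20 at 211 ± 5.93 and Mrpl30 at 193 ± 0.764. The 83 genes together held 3.27% and 3.20% of TPM without spike-ins (3.24 ± 0.0479%), and 1.12 ± 0.00840% of expected counts, which are not per length. The core genes had a median length of 681 bases, against 2559 bases for detected protein-coding genes.

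The highest was Rpl41, the gene of the smallest ribosomal protein, with 1709 TPM in replicate 1 and 1607 in replicate 2. Its whole coding region is shown because its length sets this gene apart, from transcript Rpl41-201 of GENCODE M21, on the minus strand of chromosome 10 in the gene at chr10:128548114-128549305 of GRCm38.
Rpl41: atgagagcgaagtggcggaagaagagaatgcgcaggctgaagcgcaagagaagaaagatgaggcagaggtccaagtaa
These are 78 bases, stop codon included. Rps19, which helps to mature the small subunit and is the gene most often mutated in Diamond-Blackfan anaemia, had 825 and 892 TPM. Rps29, a small zinc-binding protein of the small subunit, had 796 and 763. Rpl41 was above all others in both libraries. Next by mean came Rpl32 at 779 and 712, Rps14 at 712 and 690, Rplp1 at 698 and 689, Rplp0 at 664 and 684, Rpl37a at 666 and 673, and Rpl36 at 668 and 620. In this order Rps19 lay above Rps29 in both libraries, Rps29 and Rpl32 overlapped between the libraries, as did Rps14 and Rplp1, and so did each pair of neighbours among Rplp0, Rpl37a and Rpl36. Rplp0 and Rplp1 form the stalk that recruits elongation factors, and their partner Rplp2 stood at 552 and 510 TPM.

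The lowest core gene was Rpl5, which carries the 5S RNA into the ribosome and, with Rpl11, can bind Mdm2, at 61.9 TPM in replicate 1 and 52.5 in replicate 2. Rpl27a followed at 64.2 and 61.6, Rpl12, a base of the stalk, at 63.4 and 67.4, and Rps23, which sits in the decoding centre, at 96.8 and 84.2. Above them came Rpl22 at 113 and 96.2, Rpl27 at 118 and 93.7, Rps12 at 116 and 113, Rpl37 at 128 and 105, Rpl10a at 161 and 170, and Rpl36a at 177 and 179. Neighbours in this order overlapped between the libraries among Rpl5, Rpl27a and Rpl12, and again from Rps23 to Rpl37. Between the ends, 53 of the 76 core genes lay from 200 to 600 TPM by their mean.

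**Figure D2:**
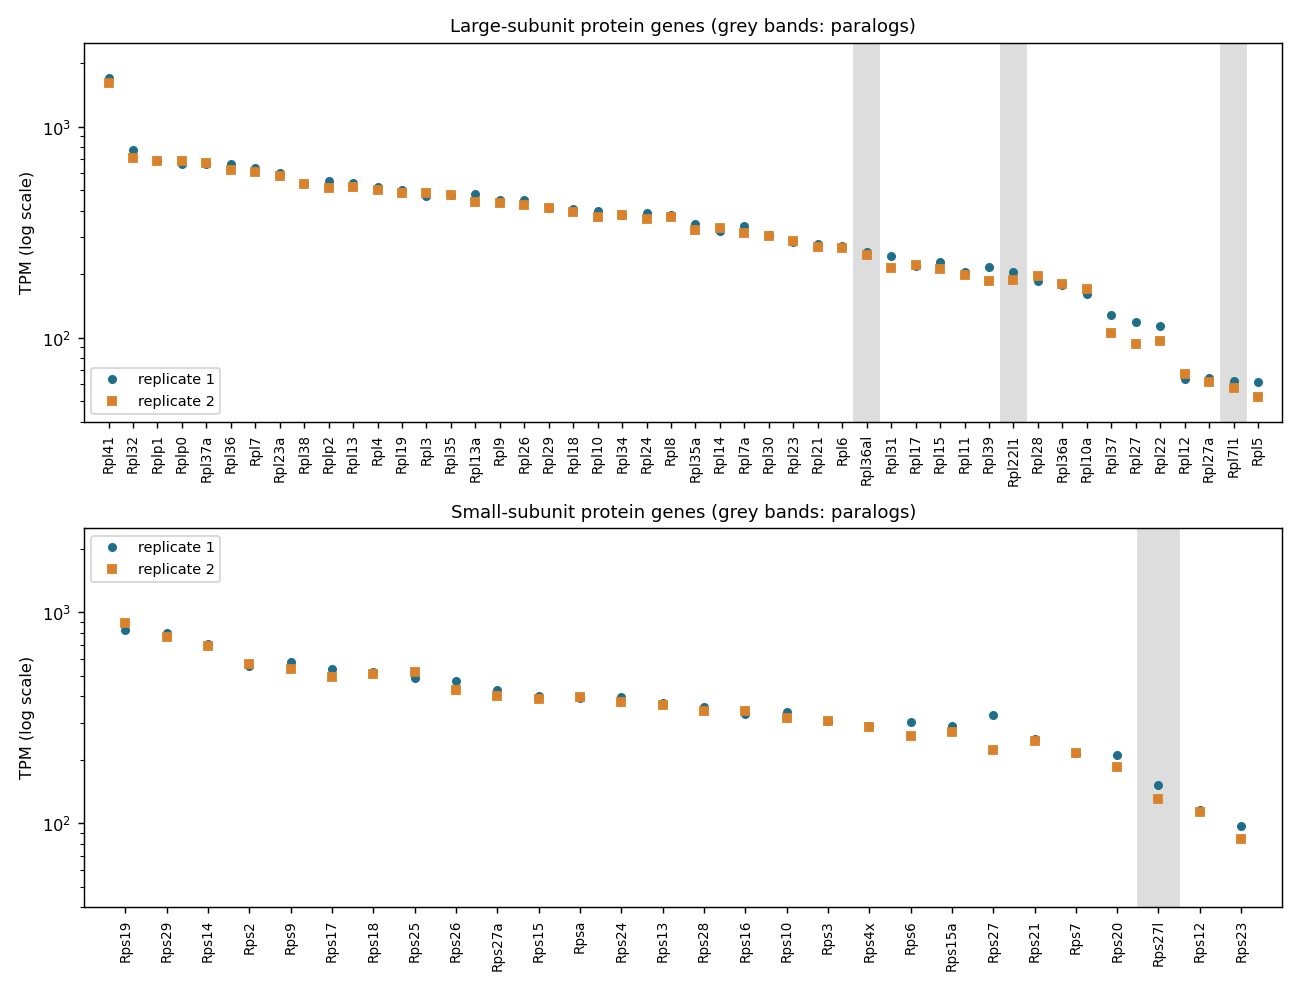
Deposited TPM on a log scale of 76 of the 80 detected genes in each library, ordered by mean within the large and the small subunit, with paralogs on grey bands. Rpl41 stands above all others at 1709 and 1607 TPM, most pairs of symbols nearly coincide, and Rps27 has its 2 libraries furthest apart.

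The large and the small subunit were alike in level. The median core gene of the large subunit had 385 and 370 TPM, and that of the small subunit 383 and 369, a ratio of 1.00 ± 0.00448. Large-subunit genes ran from 57.2 to 1658 by their mean and small-subunit genes from 90.5 to 858. Over the 76 core genes the highest and lowest differed 27.6-fold in replicate 1 and 30.6-fold in replicate 2, and the coefficient of variation was 58.7% and 59.2%. The 77 mitochondrial ribosomal genes had nearly the same coefficient, 57.9 ± 0.786%. Leaving out Rpl41, an alternative chosen after seeing the data, lowered the fold to 15.2 and the coefficient to 48.4%. The order of core genes was close to the same in both libraries (Spearman's rho 0.993 over 76 genes, which share one annotation and one quantification), and shorter genes tended to have more TPM (rho −0.35 over the same genes).

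Many of these genes share their sequence with pseudogenes. In the tables, 242 annotated pseudogenes had at least 50% of their 31-base words inside a member on the same strand, and they belonged to 64 of the 83 genes. Of these copies, 96 had at least 1 TPM in both libraries and 21 at least 100 TPM. Of the 21, 17 lay wholly inside the member's GENCODE M21 transcripts, word for word. The copies together held 0.830 ± 0.0274% of TPM, beside the 3.24% of the genes. A read from a stretch that is identical in both places cannot be told apart by its sequence, and the deposited counts divide it between them.

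Several of the lowest core genes had most of their joint counts, gene and copies together, listed on copies. These shares also count copies that the annotation calls protein-coding. The share was 76.7% for Rps23, 76.4% for Rpl5, 75.5% for Rpl27, 60.4% for Rpl12 and 58.4% for Rpl27a, while it was 0 for Rpl22 and 0.489% for Rpl36a. For Rps23 the pseudogene Rps23-ps1 (chr3:37714740-37715164, 425 bases, all of its words also in Rps23) was listed at 621 TPM in replicate 1 and 575 in replicate 2, against 96.8 and 84.2 for the gene at chr13:90922958-90924950. The first 90 bases of the Rps23 coding region are shown because the same letters stand unchanged in the pseudogene.
Rps23: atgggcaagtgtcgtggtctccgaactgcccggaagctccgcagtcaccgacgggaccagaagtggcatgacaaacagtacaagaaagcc
The gene with its copies came to 689 TPM. Rpl5 had 57.2 ± 6.60 TPM and its copy Gm15500 270 ± 5.35. Rpl27a had 62.9 ± 1.87 TPM beside 248 ± 1.10 for Gm7536. These copies were far above their genes in both libraries.

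Pseudogene copies also exceeded the gene in both libraries for Rpl12, Rpl27, Rpl37 and Rpl10a among the 10 lowest core genes. That made 7 of the 10. These 10 were picked for low TPM on the gene, the value the copies are compared with, so this share is partly fixed by the choice. Altogether, pseudogene copies exceeded the gene in both libraries for 13 core genes. Among the others were Rpl15, Rpl28, Rpl31, Rps6 and Rps29. Rps6, the target of S6 kinase, had 303 and 261 TPM, and its copy Rps6-ps4 had 315 and 304. The copy Gm14303 of Rps29 had 1069 and 924 TPM but is only 171 bases long, so its TPM rests on few positions, and in counts the copies held 24.0% of the joint total of that gene. Rpl22 and Rpl36a, the other low core genes with no pseudogene copy, stood at 105 ± 12.0 and 178 ± 0.870 TPM. The pseudogene copies of Rps12, the last of the 10, summed to 112 TPM beside 114 for the gene. With the protein-coding copy Rps12-ps3 added, its copies had 118 and 129 TPM, above the 116 and 113 of the gene.

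Rps27 and Rpl35 shared counts with copies that the annotation calls protein-coding, of which there were 8. Rps27rt (chr9:114982366-114982739) had 461 and 481 TPM beside 328 and 221 for Rps27, the gene of a zinc-finger protein of the small subunit. Gm2000 (chr1:156366040-156366484) had 405 and 377 TPM beside 477 and 472 for Rpl35. With both kinds of copy counted in, 22 core genes had at least 20% of their joint counts on copies, and 73 of 76 core genes reached 200 TPM in both libraries, against 62 without them. The lowest were then Rpl22 at 105, Rpl36a at 180 and Rps20 at 198, and the highest were Rps29 at 1776 ± 126 and Rpl41 at 1658 ± 71.6. The joint value of Rps29 rests on the 171-base copy, and without it Rps29 had 779 TPM, so the order of these genes depends on that copy. The core median rose from 378 ± 11.0 to 464 ± 20.98 TPM and the coefficient of variation went from 59.0% to 53.2%. This sum credits every read of a copy to the gene, and whether a copy is itself transcribed was not tested.

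**Figure D3:**
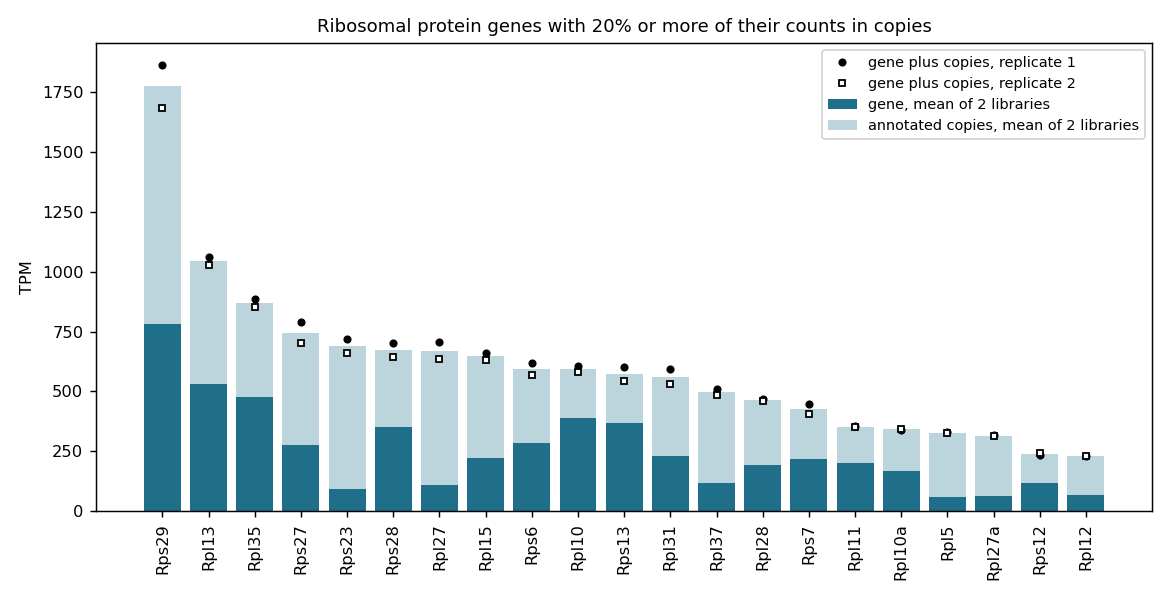
Mean TPM of 21 of the 22 core genes with at least 20% of joint counts on annotated copies: the dark bar is the gene, the pale bar its copies, and symbols give the joint value in each library. For Rps23, Rpl27, Rpl5 and Rpl27a the dark bar is the smaller share, and Rps29 with its copies reaches 1776.

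The credibility intervals of the deposited tables, whose level is not stated, were wider where copies took more of the counts. Their width was 14.4% of TPM at the median of the 22 core genes with at least 20% of counts on copies, and 6.03% for the 47 with less than 5%. The widest among detected genes were those of Rps27 (30.005% of TPM), Rps12 (26.6%), Rpl12 (22.5%), Rpl27 (17.0%) and Rpl11 (16.7%). The narrowest, at 3.31%, was that of Rpl4. In 19 genes the deposited TPM lay above the upper bound of its own interval in both libraries, among them Rpl41 (1709 TPM, with bounds of 1625 and 1688, in replicate 1). The posterior mean TPM of core genes was 97.2% of the TPM at the median, which places the intervals slightly lower than the TPM they go with.

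Sequence shared with other genes of any kind was common too. At the median, 23.4% of the 31-base words of a member also stood in transcripts of another gene. The share was highest for Rpl36 (94.1%), Rplp1 (75.05%), Rpl19 (58.8%), Rpl24 (52.7%) and Rpl23a (52.3%). The copies of Rpl36 held 1.26% of its joint counts, and Rplp1 had no pseudogene copy under the definition used.

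The 2 libraries gave close values. Among the 80 genes whose expected count averaged 50 or more, log2 differences of replicate 2 minus replicate 1 had a median of −0.015, and 51 of the 80 were below 0, beside 48.1% of the 14412 genes compared. On deposited TPM, 64 of the 80 were below 0, beside 56.7% of the 14409 genes with TPM above 0 in both. On that scale the median was −0.055 for the ribosomal protein genes and −0.031 for all genes, and spike-ins held 3.74% of TPM in replicate 1 and 5.47% in replicate 2. In these data 305 of the 14412 genes were at least 1.5-fold higher in replicate 2 (2.12%) and 191 at least 1.5-fold lower (1.33%). Of the 80 ribosomal protein genes, 0 were past that fold in either direction. At 1.2-fold or less stood 78 of the 80, against 91.8% of the 7491 genes in the same range of counts. No test is possible on 2 libraries, so these shares are descriptions.

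The 5 genes most lower in replicate 2 were Rps27, Rpl27, Rpl37, Rps6 and Rpl39. Rps27 had 946 expected counts in replicate 1 and 745 in replicate 2, a log2 difference of −0.53 after scaling. Its copy Rps27rt had 2312 and 2811 counts, the opposite way. Joined, they had 3258 and 3556 counts, each whole to within 0.02, and the log2 difference was −0.06. The same joining moved Rpl27 from −0.28 to −0.13, Rpl37 from −0.25 to −0.12 and Rps6 from −0.18 to −0.10, while Rpl39, the gene of a very small protein of the exit tunnel, went from −0.18 to −0.15. These 5 genes were picked for their large differences. Joining moved other genes away from 0, among them Rps12 from −0.007 to 0.06, Rps29 from −0.02 to −0.06 and Rpl35 from 0.003 to −0.02. These are not the largest such moves, and another gene went from −0.002 to −0.09. Over the 76 core genes the SD of the log2 differences was 0.1004 alone, with Rps27 at −0.53 in it, and 0.0644 with copies. Own counts were not whole in both libraries for 62 core genes, and for 15 of those, Rps27 among them, the sum with copies was.

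The 5 genes most higher in replicate 2 were Rps19 (log2 difference 0.16), Rps25 (0.14), Rpl10a (0.12), Rps16 (0.10) and Rpl3 (0.08). Rps25, needed by viral internal entry sites, had 488 and 522 TPM, and Rps16 had 331 and 340. The quartiles of the 7491 genes in the same count range were −0.09 and 0.09, so that Rps19, Rps25, Rpl10a and Rps16 lay above the upper one. Joined with their copies, Rpl10a went to 0.06 and Rps16 to 0.08, both below that quartile. Those of the ribosomal protein genes were −0.07 and 0.02. The 77 mitochondrial ribosomal genes had a median of 0.04, with 26 below 0.

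**Figure D4:**
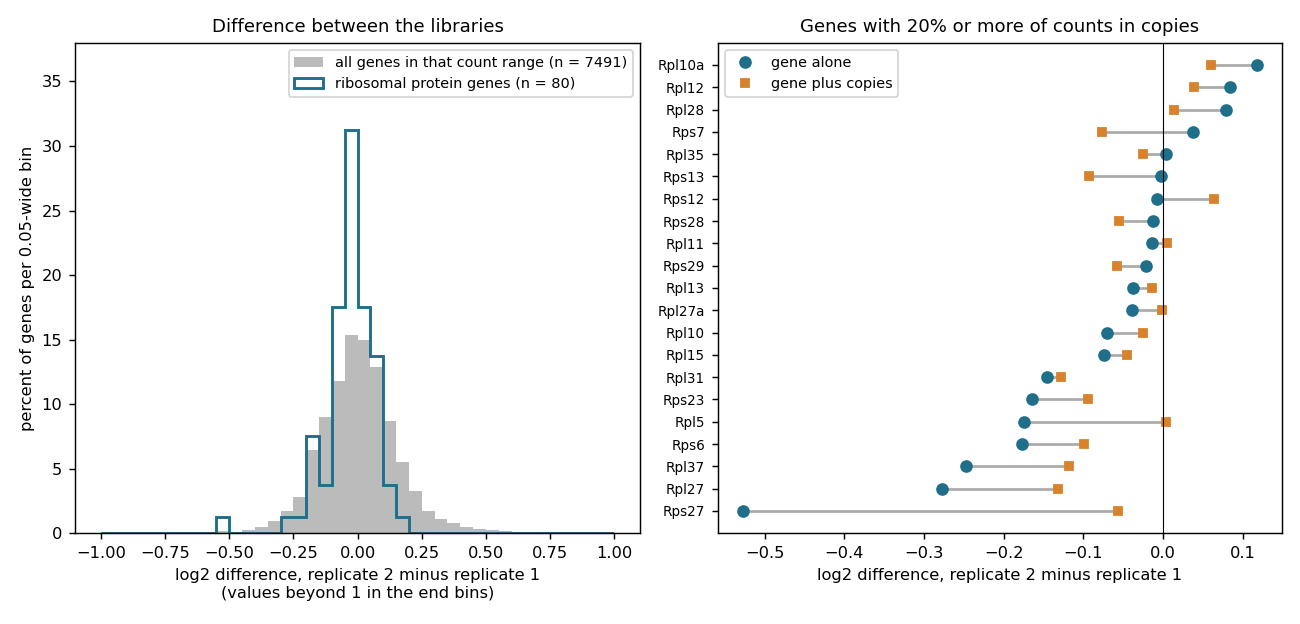
Left, percent of genes per bin of log2 difference between the libraries, for 80 ribosomal protein genes (line) and the 7491 genes in their range of counts (grey). Right, the same difference for 21 of the 22 core genes with at least 20% of counts on copies, alone (circles) and joined with their copies (squares); Rps27 moves from −0.53 to −0.06.

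The paralogs showed 3 patterns: high, lower than their core gene, and close to 0. Rpl22l1 had 205 TPM in replicate 1 and 188 in replicate 2, above Rpl22, an RNA-binding protein of the large subunit, at 113 and 96.2. The log2 ratio was 0.91 ± 0.07, which is 1.88-fold. On protein-coding transcripts alone the excess was smaller, with 131 and 132 TPM for Rpl22l1 against 107 and 92.3 for Rpl22. Rpl36al had 256 and 245 TPM, above Rpl36a at 177 and 179, with a log2 ratio of 0.49 ± 0.05. The libraries did not overlap in either pair. In the Rpl36a pair the coding regions have the same length of 321 bases and differ in 38 of 107 codons, and 38 of those 38 differences keep the amino acid. Rpl36a lies on the X chromosome and Rpl36al on chromosome 12.

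Rps27l, known as a target of p53, had 152 and 131 TPM, below Rps27 at 328 and 221, with a log2 ratio of −0.93 ± 0.25. That ratio leaves out Rps27rt, whose share of the counts is given above. Rpl7l1, which takes part in ribosome assembly, had 62.4 and 57.5 TPM against 638 and 610 for Rpl7, a log2 ratio of −3.38 ± 0.04 or 10.4-fold. On expected counts, which are not per length, the ratios of Rpl22l1 and Rps27l turned sign, to −0.42 and 0.43.

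The 3 remaining paralogs, which other tissues such as testis and muscle are known to use, were close to 0. Rpl10l had 0 counts in both libraries, at least 2279-fold lower than Rpl10 in replicate 1 and 2475-fold in replicate 2 when 3 counts per library are taken as the floor. Rpl3l had 0 counts in replicate 1, at least 2602-fold lower than Rpl3, and 1 count in replicate 2, where Rpl3 was 5373-fold higher with a 95% counting interval from 964 to 212209. Rpl39l had 3 counts in each library, at 0.230 and 0.310 TPM, against 216 and 186 for Rpl39. That is 940-fold lower in replicate 1, with an interval from 322 to 4556, and 601-fold in replicate 2, from 206 to 2916. Intervals and floors cover counting error only. The germ cell markers Ddx4, Dazl and Tex101 were below 1 TPM in both libraries, and of the 4 muscle markers only Acta1 reached that level.

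Within the coding region, reads of Rpl39 and Rpl39l can be told apart only by the bases that differ. Both coding regions are shown with those bases in capitals (Rpl39-201, minus strand of chromosome X, in chrX:37082520-37085402, and Rpl39l-201, plus strand, in chr16:10170226-10174911).
Rpl39: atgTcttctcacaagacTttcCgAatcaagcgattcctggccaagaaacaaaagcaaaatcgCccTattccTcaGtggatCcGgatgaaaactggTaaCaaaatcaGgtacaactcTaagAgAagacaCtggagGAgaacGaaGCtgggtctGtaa
Rpl39l: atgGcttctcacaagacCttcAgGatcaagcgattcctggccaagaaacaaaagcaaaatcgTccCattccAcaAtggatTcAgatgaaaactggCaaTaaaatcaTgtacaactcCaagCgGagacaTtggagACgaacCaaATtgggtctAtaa
They differ at 23 of 156 bases and in 21 of 52 codons, 18 of which keep the amino acid. Only 8 of the 31-base words of Rpl39l occur in Rpl39, and none was shared by the other 6 pairs.

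**Figure D5:**
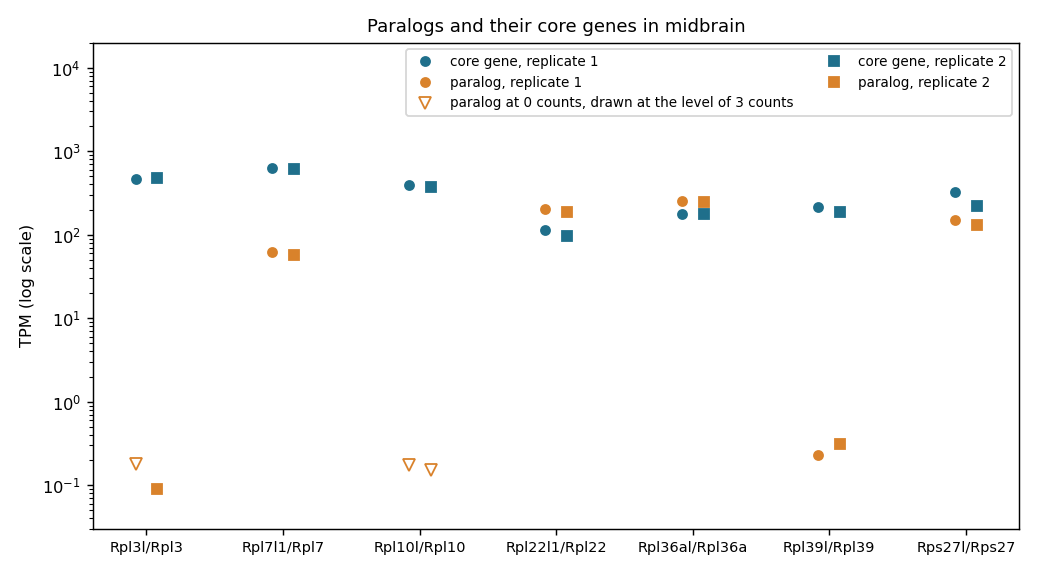
TPM on a log scale of 7 paralogs (orange) and their core genes (blue) in each library, with open triangles where a paralog had 0 counts, drawn at the level of 3 counts. Rpl22l1 and Rpl36al lie above their core genes, Rps27l and Rpl7l1 below, and 3 paralogs lie near or below 0.3 TPM.

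Rps4l, named as a paralog of Rps4x, is a pseudogene in the annotation and so no member, and it had 159 and 174 TPM beside 289 and 286 for Rps4x. The genes that the naming rule misses sat among the core genes, with Rps3a1 at 426 ± 18.9, Fau at 318 ± 25.9 and Rack1 at 293 ± 0.651 TPM. Adding them left the median at 370.0 TPM.

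Ribosomal protein genes also differ in which of their annotated transcripts carried the signal. Of the 76 core genes, 57 have at least 2 transcripts in the tables, and the leading one held 79.3 ± 0.290% of TPM at the median. The leading transcript was the same in both libraries for all 76. In 44 core genes the transcripts that hold at least 99% of TPM had the same length in the annotation used for names, so that their type could be read, and in 40 of these the leading transcript is protein-coding. The median share of TPM on protein-coding transcripts was 96.0 ± 0.261%.

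The 4 exceptions were Rps20, Rpl35, Rpl23 and Rpl12. Rps20, part of the head of the small subunit, had 90.8% and 91.4% of TPM on Rps20-201, typed as a retained intron. Rpl35, beside the exit tunnel, had 85.6% and 83.4% on Rpl35-203, typed as a processed transcript. Rpl23 had 63.1% in each library on Rpl23-204, also a processed transcript, and Rpl12 had 49.1% and 57.2% on Rpl12-201, typed as subject to nonsense-mediated decay. These 4 were the ones with under 50% of TPM on coding transcripts in both libraries. These shares are of the TPM listed on the gene itself and leave out its copies. Copies held 60.4% of the joint counts of Rpl12 and 39.1% of those of Rpl35, and 0 of those of Rps20 and Rpl23. The types come from the annotation, and whether these molecules are translated was not tested.

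Shares of the leading transcript were lowest for Rpl13a (40.7% and 34.1%, a transcript that could not be named), Rpl38 (46.4% and 47.6%), Rpl5 (46.9% and 49.0%), Rpl22 (54.1% and 47.2%) and Rps18 (49.6% and 53.1%) among detected genes. Rpl38 is known for its role in translating Hox messages, and all of its TPM was on protein-coding transcripts. Introns of these genes also carry small nucleolar RNAs, which guide the modification of ribosomal RNA. The bodies of 29 of the 83 genes hold 56 annotated small nucleolar RNA genes on the same strand, with 5 in Rpl4 and 4 in Rpl13a, among others. The 83 genes are spread over 19 chromosomes, with 14 on chromosome 7 and 4 on the X chromosome.

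Other genes of the pathway were measured in the same libraries. All 23 translation factors of the list used were detected, with a median of 235 ± 1.10 TPM. Eef1a1, which delivers transfer RNAs to the ribosome, had 2684 and 2551 TPM, more than any ribosomal protein gene, followed by Eif1 at 1003 ± 45.0 and Eif4g2 at 973 ± 71.0. All 20 ribosome biogenesis genes were detected, at a median of 52.8 ± 0.909 TPM, led by Npm1 at 306 ± 21.2, Nop56 at 198 ± 3.54 and Ncl at 169 ± 11.5. The 16 genes of mTOR and pyrimidine tract control had a median of 31.2 ± 4.35 TPM, led by Cnbp at 408 ± 11.6, Tia1 at 261 ± 25.3 and Rheb at 221 ± 14.98. The 8 genes of ribosome rescue and the p53 checkpoint had a median of 39.8 ± 3.26 TPM, led by Cdkn1a at 112 and 144, Hbs1l at 69.1 ± 3.42 and Mdm2 at 45.6 ± 2.02. In none of these 4 lists did a gene pass 1.5-fold between the libraries.

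Replicate 1 held 31830355 expected counts and replicate 2 held 36576263, with 352099 and 397310 of them on the 83 genes, and 1 read on 1 kilobase of effective length was worth 0.0540 and 0.0464 TPM. All 7 midbrain markers and all 4 markers of young neurons were detected, and the 3 hindbrain Hox genes were below 1 TPM in both. The libraries differed in astrocyte markers, whose 5 genes summed to 463 and 822 TPM, with 3 of 4 compared at least 1.5-fold higher in replicate 2, and in markers of dividing cells, whose 6 genes summed to 193 and 151, all 6 lower in replicate 2. The 4 microglia markers, summing to 67.6 and 86.9 TPM, were all higher in replicate 2, 1 of them at least 1.5-fold. Of the midbrain markers, Nr4a2 was past 1.5-fold, with 34.2 and 21.7 TPM and a log2 difference of −0.69. The 5 radial glia markers were split, with 3 lower in replicate 2, Sox2 past 1.5-fold among them, and Fabp7 and Hes5 higher. Of the 4 markers of fibroblasts and meninges, 2 were lower in replicate 2, and none was past that fold. Red cell genes were high in both, with sums of 12789 and 11288 TPM. What part these cells had in the ribosomal protein values was not tested, and in tissue RNA fewer cells of a type and less RNA per cell cannot be told apart.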

How the data were processed

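Gene and transcript tables of 2 total RNA libraries were used. Per the deposited readme, reads were aligned to mm10 and quantified against GENCODE M4; neither tools and versions nor strandedness are given in the sources used here. Per the file headers, the deposited expected count is an estimated number of reads per gene, with shared reads divided among features, not normalized. The deposited TPM is per effective length and scaled to 1000000 per library, spike-ins included. The deposited FPKM served only as an alternative. The deposited bounds of TPM are signal values of a credibility interval of unstated level. The deposited isoform share is a percent of the TPM of a gene.

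Names, types and coordinates came from GENCODE M21 (GRCm38), joined by Ensembl identifier without version; 884 identifiers found no name and held 0.197% and 0.183% of expected counts. Starts came from RefSeq (GRCm38.p6). Log2 differences were of expected counts plus 0.5, divided by TMM factors (edgeR 4.0.16 on rounded counts), for genes with a mean of at least 50. Values with ± are mean and SD over 2 libraries. A copy is an annotated pseudogene with at least 50% of its 31-base words in a member, same strand. Joint counts, joint TPM and joined log2 differences also take in 8 protein-coding genes that meet that rule. Words were read from GENCODE M21 transcripts, while reads were divided on GENCODE M4. Whether the same words are shared in M4 was not tested. Calls at 1.5-fold were checked on simulated data. Alternatives included DESeq2 1.42.0 size factors. Python 3.11.15, numpy 2.4.6, pandas 2.3.3 and R 4.3.3 were used.

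Members and lists were chosen with earlier results of these data known. The genes named are the 10 highest and 10 lowest core genes, all paralogs, the 5 per direction with the largest library difference, the 5 with the widest interval, the lowest leading transcript share and the largest shared sequence, and the 3 highest of each other list; ranks for intervals and transcripts are among detected genes. Copies and the genes named with them were chosen after their values were seen. A few genes that these rules take are not reported here or drawn. No p-value can be had from 1 group of 2 libraries.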

Additional observations from a re-analysis of the deposited data

How the results depend on the processing

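No paired analysis was possible because all samples belong to 1 group. The median of 370.0 TPM became 360 with posterior mean TPM, 344 for genes with under 50% of words shared, 348 with no filter on level, 440 with pseudogene copies added and 285 on protein-coding transcripts only; without 1 library it ran from 363 to 377. The share of TPM (3.24%) became 3.14% with posterior means, 3.09% with spike-ins in the total, 1.12% of expected counts, 3.17% for core genes and 3.40% with the genes the rule misses, and ran from 3.20% to 3.27% without 1 library. The coefficient of variation (59.0%) became 63.8% on expected counts, 61.3% for genes with under 50% of words shared, 53.9% with pseudogene copies, 77.0% on coding transcripts and 48.4% without Rpl41, and ran from 58.7% to 59.2%. The fold from highest to lowest (29.1) became 20.1 on expected counts, 17.0 with pseudogene copies, 142 on coding transcripts and 15.2 without Rpl41. Without 1 library it ran from 27.6 to 30.6. Transcripts could be named for 48 detected and 44 core genes, so the values on coding transcripts cover fewer genes; on the deposited TPM of the same genes the median was 322, the coefficient 68.4% and the fold 29.1. The median log2 difference stayed below 0 in every setting run: −0.017 with DESeq2 size factors, −0.055 on TPM (all genes −0.031), −0.015 with 1 added, −0.019 on posterior mean counts, −0.013 for core genes and −0.017 for genes with under 50% of words shared. With no filter on counts 1 gene, Rpl3l with 0 and 1 counts, passed 1.5-fold upwards. The leading transcript share (79.3%) was 78.7% by posterior means. The subunit ratio (1.00) was 1.07 on counts and 0.901 for genes with under 50% of words shared. On expected counts the ratio of Rpl22l1 to Rpl22 reversed to −0.42 and that of Rps27l to Rps27 to 0.43. Tracts within 10 bases numbered 34 against 13. The cause of these shifts was not tested. The alternatives with pseudogene copies, coding transcripts, genes with named transcripts and without Rpl41 were chosen after seeing the data. Depth limits what can be said of Rpl10l, Rpl3l and Rpl39l, at 0 to 3 counts.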
